A study of Mus musculus with 6 samples.

Results

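Ephrins and Eph receptors were compared between lymphatic endothelial cells (LEC) of a metastatic mouse tumour and LEC of normal mouse skin. The set held 9 genes chosen by symbol: the ephrins Efna1, Efna5, Efnb1 and Efnb2, and the receptors Epha2, Epha4, Ephb2, Ephb3 and Ephb4. Probe sets annotated to a single gene measured 8 of them, out of 18193 genes on the arrays, and for Ephb2 no probe set was named, so it has no value here. Where a gene had several probe sets, the one with the highest mean over the 6 arrays stood for it. All 8 passed the filter on low values and were tested among 12954 genes.

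Eph receptors form the largest family of receptor tyrosine kinases, and their ligands, the ephrins, are themselves held in the cell membrane, so the pair signals where cells touch. Ephrins of the A class are anchored by a lipid and those of the B class span the membrane and can signal back into their own cell. In the vasculature ephrin-B2 and EphB4 are known as the arterial and venous partners, and in lymphatic vessels ephrin-B2 is known to act in valve formation and sprouting.

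Tumour LEC (3 arrays) were taken from tumours that grew in C57BL/6 mice after injection of fibrosarcoma cells labelled T241/VEGF-C/GFP, T241 being a mouse fibrosarcoma line. The titles of these arrays speak of fibrosarcoma cells and their source field of tumour LEC, and the source field was followed. Normal LEC (3 arrays) came from female mice of that strain aged 8 weeks, from skin of the tail. Both were cultured in EGM-2 medium on gelatin and selected with LYVE-1 antibodies on magnetic beads, although the labels' account of the later steps for the tumour cells is unclear. Age and sex of the tumour-bearing mice are not given, and the labels do not say whether replicates were separate animals or cultures, so the p-values measure the spread between these arrays only, and their number limits the precision.

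Markers of the labelled cell type and of other cell types were read on each array. Of 9 lymphatic markers tested, 8 lay above background on each of the 6 arrays, with Lyve1, the receptor used for selection, at 14.11 to 14.91 in tumour LEC and 13.65 to 14.32 in normal LEC. Prox1, the transcription factor of lymphatic identity, was at 7.77 to 8.92 in tumour LEC and 7.73 to 8.30 in normal LEC. Of the 9 lymphatic markers 6 read higher and 3 lower in tumour LEC on average. Groups were apart for 1 of them (11.1%, against 32.4% of all genes). That was Foxc2, named here after its values were seen, at 5.88 to 6.57 in tumour LEC and 7.36 to 8.50 in normal LEC. Its difference was -1.74 (adjusted p = 0.126, limma). The mean log2 level of 12 markers of fibroblasts or fibrosarcoma cells (fibroblast markers from here on), a list that holds Pdgfra and Col1a2, was 4.30 to 4.98 on the tumour arrays and 8.07 to 10.79 on the normal arrays, the highest in normal replicate 1. That of 9 leukocyte markers was 8.51 in tumour replicate 1 and 5.37 to 6.04 on the other 2 tumour arrays. On the normal arrays it was 5.81 to 7.14. Of these markers 7 to 9 lay above background on each tumour array and 7 to 8 on each normal array. On average 6 read higher in tumour LEC and 3 lower. The lower ones, named here after their values were seen, were Cd68 (-0.99), Csf1r (-1.01) and Lyz2 (-1.03). Ptprc, the leukocyte antigen CD45, was above background in tumour replicate 1 alone, at 5.92. Col1a2, a collagen chain of fibroblasts, was at 2.76 to 3.61 in tumour LEC, above background in replicate 1 alone, and at 11.69 to 14.29 in normal LEC. Of the 12 fibroblast markers 11 read lower in tumour LEC on average, with Col1a2 the furthest. Thy1, named here after its values were seen, read higher on every tumour array, at 12.97 to 13.67 against 12.58 to 12.83. Lum, also named afterwards, was above background in normal replicate 1 alone. The mean level of 10 pan-endothelial markers was 9.88 to 10.57 on the tumour arrays and 8.47 to 9.77 on the normal arrays, the lowest in normal replicate 1. On average 9 read higher in tumour LEC and 1 lower. Groups were apart for 3 of the 10 (30%, against 32.4% of all genes), each higher in tumour LEC. Cdh5 was among these, at 11.52 to 11.65 in tumour LEC and 9.62 to 11.37 in normal LEC. Keratinocyte markers (7 tested) averaged 3.84 to 3.90 on the tumour arrays and 4.72 to 4.88 on the normal arrays. Most of that gap came from Perp, a junction protein named here after its values were seen, whose mean was 4.75 ± 0.47 on the tumour arrays against 10.05 ± 0.95 on the normal ones (SD, n = 3 each, adjusted p = 0.0415, limma), and from Pkp1, above background on 2 normal arrays alone. Krt10, above background on all arrays, also read lower on every tumour array, with a difference of -0.24 (adjusted p = 0.352, limma). Krt5, Trp63, Dsp and Sfn read higher in tumour LEC by 0.03 to 0.26, but Trp63, Dsp and Sfn lay at background on all arrays. So did Krt14, which was not tested. The pericyte and smooth muscle markers (8 tested) averaged 5.19 to 5.68 on the tumour arrays and 5.38 to 6.12 on the normal arrays. A value counted as background where it did not exceed the highest control probe set for absent bacterial RNA on its array, a limit of 3.48 to 3.71 on the tumour arrays and 3.40 to 3.47 on the normal arrays.

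In the limma fit over all genes, with Benjamini-Hochberg adjustment and a threshold of 0.05, 0 of the 8 ephrin and Eph genes passed, against 0.216% of all genes. Without adjustment 1 of the 8, Efnb1, had a p under 0.05, against 15.5% of all genes. The values of both groups were fully apart for 2 of the 8, against 32.4% of all genes. Efnb1 was lower on every tumour array, as were 11.6% of all genes, and Epha4 was higher, as were 20.9%, but lay at background throughout. Among the 7 above background Efnb1 was thus the 1 separated gene, against 27.2% of all genes above background on some array. The median log2 difference, tumour LEC minus normal LEC, was -0.16 over the 8 genes and 0.03 over all genes tested. Over the 7 above background it was -0.49, beside -0.03 over all genes above background on some array. On average 3 of the 7 genes above background read higher in tumour LEC and 4 read lower, and all 7 had a 95% interval of the difference that reached past 1 log2 unit on at least one side, so differences of that size were not excluded.

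**Figure D1:**
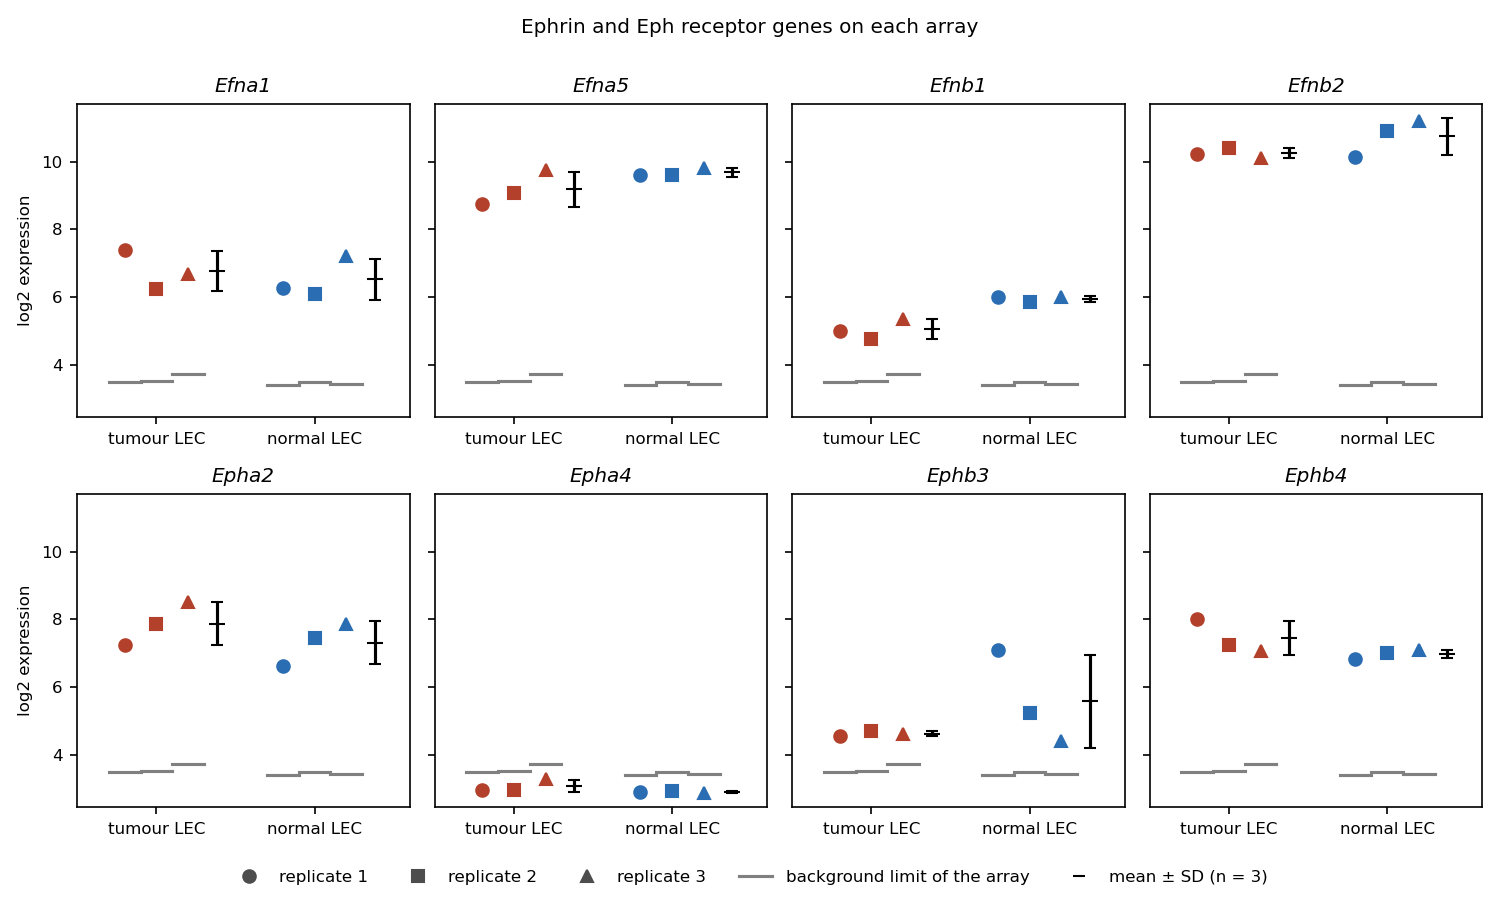
Log2 expression of 8 ephrin and Eph genes (y axis) on 3 tumour LEC arrays (red) and 3 normal LEC arrays (blue), with mean ± SD in black and each array's background limit as a grey line. The groups separate above background for Efnb1 alone, at 4.77 to 5.36 in tumour LEC and 5.85 to 6.00 in normal LEC.

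Efnb1 encodes ephrin-B1, a transmembrane ligand of EphB receptors. It read 5.00, 4.77 and 5.36 in tumour LEC and 6.00, 5.85 and 6.00 in normal LEC. Each tumour array lay below each normal array, and the normal values were closer together than the tumour values. The log2 difference was -0.91 (SE 0.17, 95% interval -1.34 to -0.47, adjusted p = 0.115, limma), so it did not pass over all genes. A second probe set for Efnb1 read 3.54, 2.86 and 3.64 in tumour LEC, above background on 1 of the 3 arrays, and 4.49, 4.21 and 5.25 in normal LEC. It also separated the groups, with a difference of -1.30 (SE 0.34, adjusted p = 0.222 over all probe sets, limma), and the remaining probe set lay at background on all arrays. Efnb1 in normal replicate 1, the array richest in fibroblast markers, was level with normal replicate 3, and without normal replicate 1 the difference was -0.88. Those markers were higher as a list on all 3 normal arrays. By mean level so were the keratinocyte markers, while the pan-endothelial markers were lower there. The part of these lists in the Efnb1 difference was not tested. Weighting the arrays by quality moved it to -1.12 with an adjusted p = 0.0264 (limma), against 0.0920 to 0.269 over the other 14 alternatives. That fit gave tumour replicate 2, the lowest array for Efnb1, a weight of 3.72, against 0.446 and 0.307 for tumour replicates 1 and 3, so its tumour value rests mostly on 1 array.

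The window around the start of Efnb1, the one member whose groups separated above background, is shown with those of Efnb2 and Ephb4, the arterial and venous pair. Each runs 5′ to 3′ from 250 bases before to 50 bases after the annotated start (RefSeq, build GRCm38.p6), and capitals mark matches on either strand to TGGGAA, the core of sites for RBPJ, through which Notch acts, or to GGGCGG, the GC box of SP1 factors.
Efnb1, chrX:99135811-99136110, plus strand: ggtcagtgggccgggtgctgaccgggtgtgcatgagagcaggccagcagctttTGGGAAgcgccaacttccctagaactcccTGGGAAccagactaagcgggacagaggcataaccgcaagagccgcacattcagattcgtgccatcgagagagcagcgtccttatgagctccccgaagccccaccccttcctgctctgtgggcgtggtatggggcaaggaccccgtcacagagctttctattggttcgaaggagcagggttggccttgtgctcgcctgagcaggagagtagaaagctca
Efnb2, chr8:8661193-8661492, minus strand: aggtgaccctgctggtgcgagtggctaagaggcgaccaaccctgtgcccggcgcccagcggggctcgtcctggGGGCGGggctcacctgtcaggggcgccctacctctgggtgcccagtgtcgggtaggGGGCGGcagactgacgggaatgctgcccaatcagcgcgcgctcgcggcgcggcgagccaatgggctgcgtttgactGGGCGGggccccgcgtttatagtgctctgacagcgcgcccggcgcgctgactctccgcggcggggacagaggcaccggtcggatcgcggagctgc
Ephb4, chr5:137349859-137350158, plus strand: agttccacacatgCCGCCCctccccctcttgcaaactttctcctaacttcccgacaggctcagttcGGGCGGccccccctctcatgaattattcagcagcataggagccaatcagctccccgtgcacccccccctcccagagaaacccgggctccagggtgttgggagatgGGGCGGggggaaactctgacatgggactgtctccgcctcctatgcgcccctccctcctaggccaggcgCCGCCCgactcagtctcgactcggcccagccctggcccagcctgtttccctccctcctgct
The Efnb1 window held 2 RBPJ matches and no GC box, that of Efnb2 held 3 GC boxes and that of Ephb4 held 4, neither with an RBPJ match, and no match of one motif overlapped one of the other. All 9 members matched the RefSeq table, with 10 windows between them, of which 2 held TGGGAA (20%, in Efnb1 and Epha4) and 8 held GGGCGG (80%). Over all 32851 windows of this length the shares were 25.6% and 35.7%, but the members' windows had a GC content of 54.7% to 73.3%, against a median of 52.7% over all windows. CACGTG, the E-box bound by MYC family factors, was in 0 of the 10 windows and in 7.15% of all windows. These are matches of letters only.

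Efnb2, the gene of ephrin-B2, was read by its brightest probe set at 10.24, 10.42 and 10.11 in tumour LEC and at 10.15, 10.91 and 11.20 in normal LEC. The tumour arrays were close together, whereas normal replicate 1 lay with them and the other 2 normal arrays lay above. The log2 difference was -0.49 (SE 0.29, 95% interval -1.21 to 0.22, adjusted p = 0.454, limma). Leaving out normal replicate 3 gave -0.27. Without normal replicate 1, in which fibroblast markers were highest and pan-endothelial markers lowest, it was -0.79 and still did not pass (adjusted p = 0.225, limma), and the part of the markers in the value was not tested. The next brightest probe set gave -0.29 (SE 0.26), with normal replicate 1 lowest of the 6 arrays at 8.06, and another, above background on 4 arrays, gave -0.43. The fourth lay at background.

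Ephb4 encodes the receptor that binds ephrin-B2. It read 8.01, 7.24 and 7.07 in tumour LEC and 6.84, 7.00 and 7.09 in normal LEC. The groups overlapped, since tumour replicate 3 lay just below normal replicate 3, and tumour replicate 1 was highest. The difference was 0.47 (SE 0.27, 95% interval -0.20 to 1.13, adjusted p = 0.451, limma), and it was 0.18 without tumour replicate 1. That array had the highest median deviation of leukocyte (2.32), pan-endothelial (0.96) and lymphatic markers (0.48), whose part was not tested. In these bulk samples fewer cells of a type and less RNA per cell cannot be told apart.

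Ephb3, another EphB receptor, was even in tumour LEC at 4.56, 4.69 and 4.61 and uneven in normal LEC at 7.10, 5.23 and 4.41. Normal replicate 1 stood far above the rest, and normal replicate 3 was the lowest of the 6 arrays. The difference of -0.96 (SE 0.68, 95% interval -2.65 to 0.73, adjusted p = 0.515, limma) was -0.20 without normal replicate 1 and -1.55 without normal replicate 3. Fibroblast markers deviated from their gene means by a median of 4.34 in normal replicate 1, against 1.34 and 1.05 in normal replicates 2 and 3, and their part in the value was not tested.

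Efna5 encodes ephrin-A5, a lipid-anchored ligand. It read 8.75, 9.07 and 9.76 in tumour LEC and 9.61, 9.63 and 9.83 in normal LEC. Tumour replicates 1 and 2 lay below all normal arrays and replicate 3 among them, so the groups overlapped. The difference was -0.49 (SE 0.28, 95% interval -1.18 to 0.19, adjusted p = 0.440, limma), and it was -0.27 without tumour replicate 1 and -0.78 without tumour replicate 3. A second probe set stayed at background on all 6 arrays.

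Efna1 encodes ephrin-A1, the main ligand of EphA2. It read 7.40, 6.25 and 6.67 in tumour LEC and 6.28, 6.08 and 7.22 in normal LEC. The groups were interleaved, with tumour replicate 1 and normal replicate 3 highest in both its probe sets. Those arrays also had the highest median deviations of their groups for leukocyte (2.32 and 0.45), pan-endothelial (0.96 and 0.15) and lymphatic markers (0.48 and 0.19). The part of these markers was not tested. The difference was 0.25 (SE 0.42, 95% interval -0.80 to 1.30, adjusted p = 0.759, limma), and its sign turned to -0.067 without tumour replicate 1.

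Epha2 encodes the receptor for ephrin-A1 that is known for its part in the assembly of blood vessels in tumours. It read 7.25, 7.88 and 8.51 in tumour LEC and 6.61, 7.44 and 7.86 in normal LEC. The ranges overlapped, with normal replicate 1 lowest and tumour replicate 3 highest. The difference was 0.57 (SE 0.45, 95% interval -0.54 to 1.68, adjusted p = 0.542, limma). It was 0.23 without normal replicate 1, 0.26 without tumour replicate 3 and 0.89 without tumour replicate 1. With the replicate number as a block its SE was 0.13, and it still did not pass (adjusted p = 0.158, limma).

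Epha4, a receptor that binds ephrins of both classes, was at background on all arrays in each of its 5 probe sets. The brightest read 2.95, 2.97 and 3.28 in tumour LEC and 2.89, 2.93 and 2.87 in normal LEC. These groups did not overlap, but the background limit was itself higher on the tumour arrays, and no direction is read from them. In all, 8 of the 19 probe sets of the members lay above background on every array, 3 on some arrays and 8 on none.

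**Figure D2:**
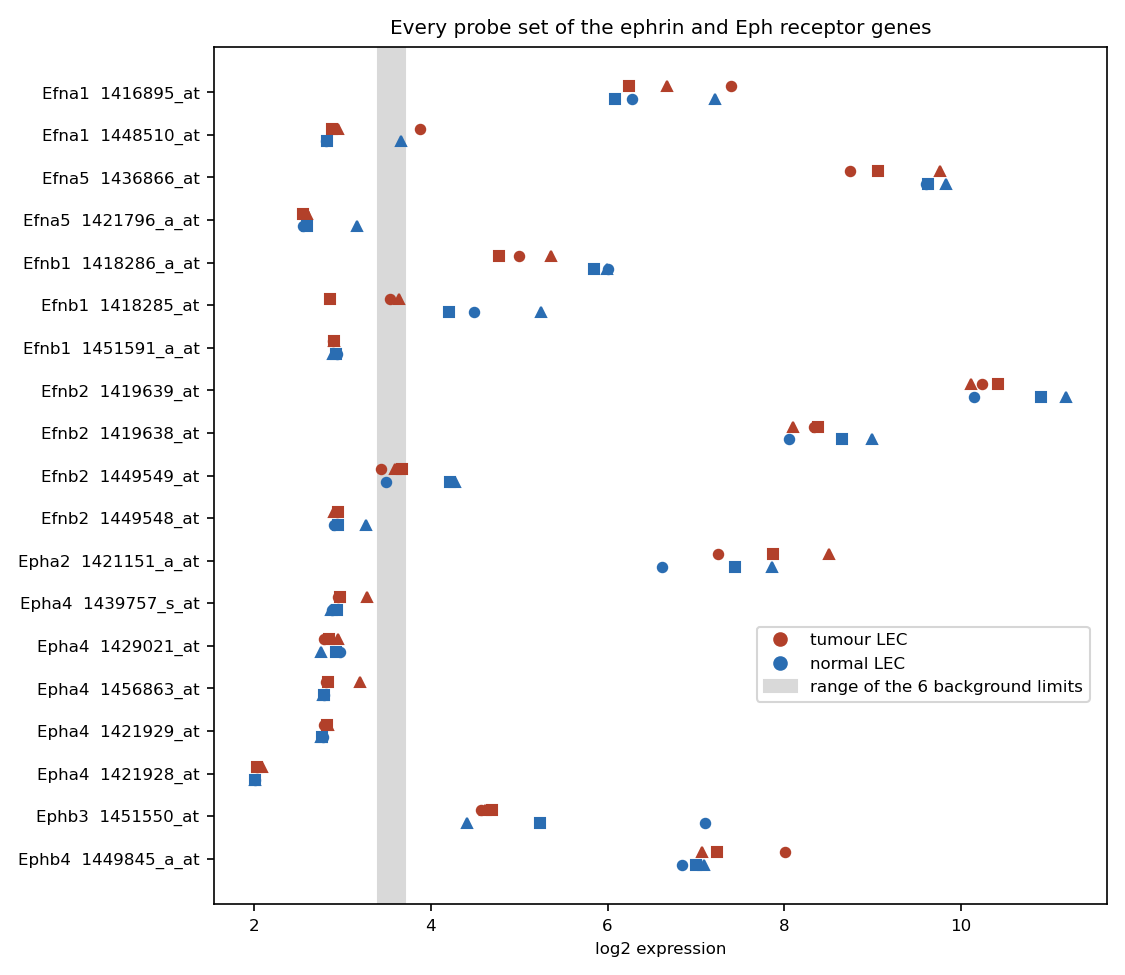
Log2 expression (x axis) in each of the 19 probe sets of the members (rows) on tumour LEC arrays (red) and normal LEC arrays (blue), with circles, squares and triangles for replicates 1, 2 and 3 and the range of the 6 background limits in grey. The 5 Epha4 probe sets lie below the grey band, and Efnb1 separates the groups in the 2 probe sets that reach above it.

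The rest of the family lay mostly at background. The other 13 ephrins and Eph receptors were represented by 26 probe sets, of which 24 were at background on every array, 1 above it on some arrays and 1, for Ephb1, above it on all. Genes with every probe set at background were Efna2, Efna3, Efna4, Efnb3, Epha1, Epha5, Epha6, Epha7, Epha8, Epha10 and Ephb6. For Epha3 one probe set reached 4.09 in normal replicate 1 and at most 2.64 elsewhere. Groups did not overlap for 15 of the 26 probe sets, all higher on the tumour arrays, where the background limit was higher too. Over all probe sets above the filter the share was 33.5%, but most of the 26 did not pass that filter, so the sets are unlike.

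Ephb1, a receptor of B class ephrins that was no member, was the exception. It read 6.30, 4.43 and 5.00 in tumour LEC and 3.94, 3.95 and 3.43 in normal LEC. Every tumour array lay above every normal array, the normal values sat just above background, and tumour replicate 1 was far above the other tumour arrays. The log2 difference was 1.47 (SE 0.50, 95% interval 0.23 to 2.70, adjusted p = 0.267, limma), and it was 0.94 without tumour replicate 1. Leukocyte, pan-endothelial and lymphatic markers all had their highest median deviation on that array. The part of those markers was not tested.

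**Figure D3:**
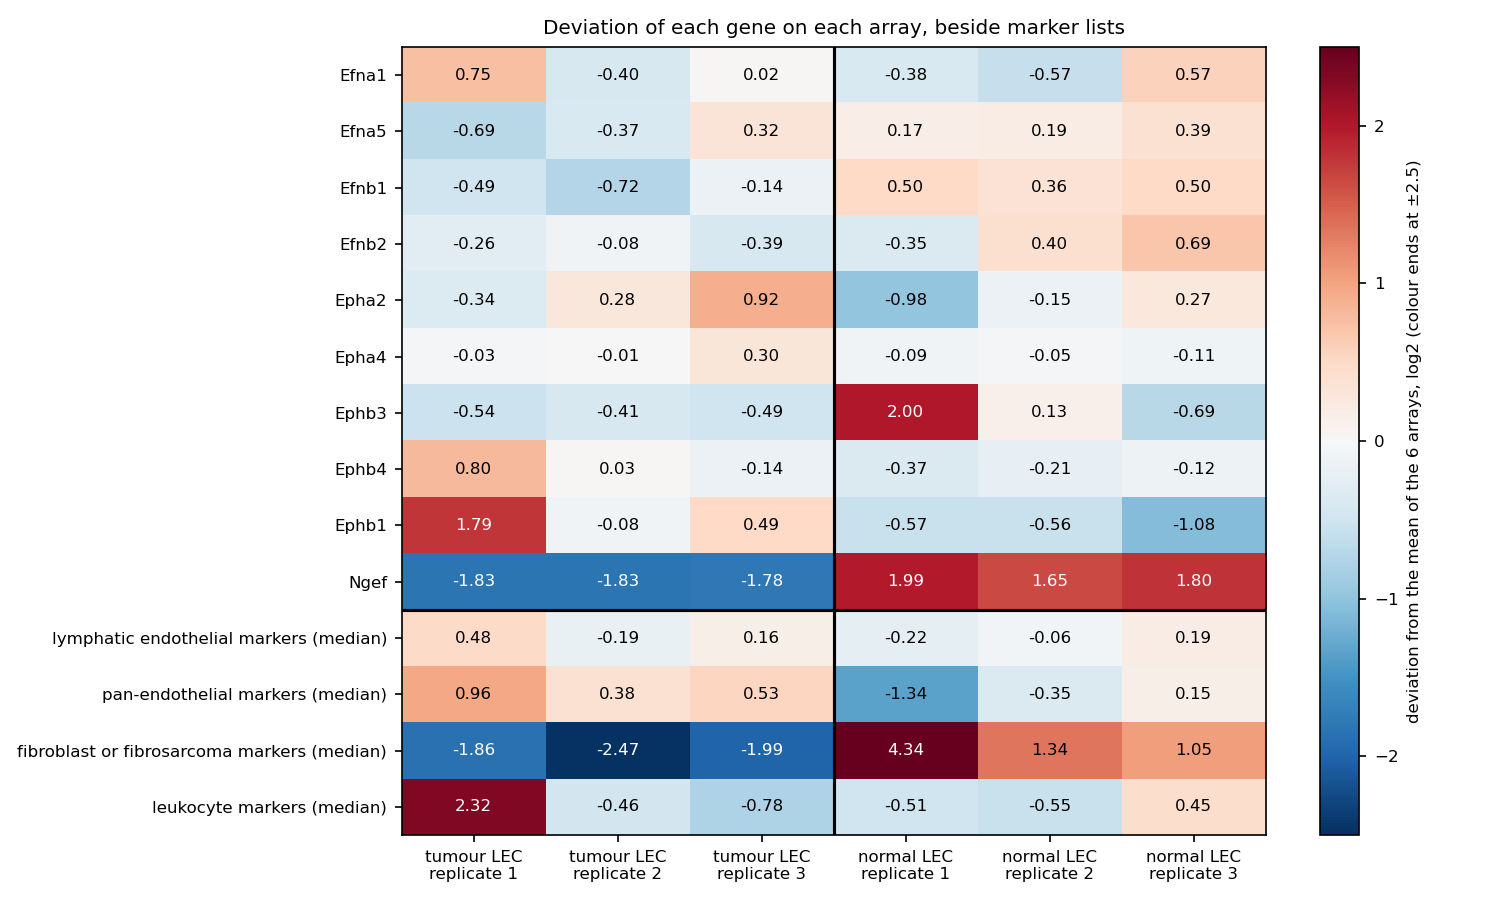
Deviation of each gene from its mean over the 6 arrays, in log2 units (colour and printed value), for 8 members, Ephb1 and Ngef, with the median deviation of 4 marker lists in the lower rows. Ephb3 peaks in normal replicate 1 with the fibroblast markers. Ephb4 and Ephb1 peak in tumour replicate 1, as do the medians of the leukocyte, pan-endothelial and lymphatic markers, and Ngef separates the groups.

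Genes that carry Eph and ephrin signals inside the cell were followed in a list of 44 adaptors, kinases, exchange factors and proteases. Of the 40 tested, 0 rose and 1 fell past the adjusted threshold in tumour LEC, against 0.0463% and 0.17% of all genes. Their median log2 difference was 0.09, beside 0.03 over all genes. The groups were fully apart for 10 of them (25%), against 32.4% of all genes. Over genes above background on some array, as 39 of the 40 were, the share was 27.2%. Tumour LEC was higher for 4 and lower for 6, against 20.9% and 11.6% of all genes. Over genes above background on some array these shares were 13.8% and 13.5%.

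The gene that fell was Ngef, which encodes ephexin-1, an exchange factor known from mouse neurons to bind EphA4 and to be activated by EphA receptors. It read 2.33, 2.34 and 2.38 in tumour LEC, at background on all 3 arrays, and 6.16, 5.82 and 5.97 in normal LEC. The normal arrays lay close together, at 5.98 ± 0.17 (SD, n = 3), and far above every tumour array. Measured against the background limits of the tumour arrays, tumour LEC had at least 5.30-fold lower Ngef (at least 2.41 on the log2 scale). That bound was not itself tested. The limma fit on the values as read, tumour values at background included, gave an adjusted p = 0.00151. Ngef passed the filter on low values through the normal arrays alone, and the small spread of its tumour values is that of values at background. It passed the same fit under each of the 15 alternatives, all with tumour values at background, with an adjusted p between 5.76e-04 and 0.0355 (limma). Fibroblast markers as a list were also higher on all normal arrays. By mean level so were the keratinocyte markers, while the pan-endothelial markers were lower there. The part of these lists was not tested. A single probe set measured Ngef. Its window around the start held 1 match each to TGGGAA, which begins after the start, and GGGCGG, in capitals, and is shown because Ngef alone of these genes passed the test.
Ngef, chr1:87573821-87574120, minus strand: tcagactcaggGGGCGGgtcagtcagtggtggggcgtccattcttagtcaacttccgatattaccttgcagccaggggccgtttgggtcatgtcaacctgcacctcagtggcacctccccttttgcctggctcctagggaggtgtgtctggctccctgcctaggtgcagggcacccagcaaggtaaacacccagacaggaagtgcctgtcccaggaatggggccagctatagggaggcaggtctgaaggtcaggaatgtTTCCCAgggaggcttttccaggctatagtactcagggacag

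The other partners with separated groups did not pass, and 7 of those 9 are given here. Yes1, a Src family kinase, read 9.50, 9.34 and 9.56 in tumour LEC and 8.55, 8.66 and 8.66 in normal LEC, a difference of 0.85 (SE 0.11, adjusted p = 0.0691, limma). Both groups were narrow and well apart, and of the alternatives Yes1 passed with array weights only (adjusted p = 0.0264, limma, against 0.0621 to 0.226 elsewhere). Its other 3 probe sets lay at background. Sdcbp or syntenin, a scaffold that binds the tail of B class ephrins, differed by 0.49 (SE 0.17; 0.32 without normal replicate 1) and by 0.77 in a second separated probe set. Chn1, a Rac inhibitor that acts below EphA4 in mouse neurons, differed by 0.68 (SE 0.24), or 0.42 without normal replicate 1. Rgs3, which binds ephrin-B tails, differed by 0.26 (SE 0.16), or 0.12 without normal replicate 2 and 0.41 with quantile normalization, and its other 2 probe sets above background did not separate the groups. On the lower side Abl1, a kinase that binds Eph receptors, differed by -0.74 (SE 0.20), Inppl1, the lipid phosphatase SHIP2 that binds EphA2, by -0.51 (SE 0.19) and Mmp2, a matrix protease, by -2.03 (SE 0.63). Mmp2 peaked in normal replicate 1, as the fibroblast markers did, and its second probe set did not separate the groups.

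**Figure D4:**
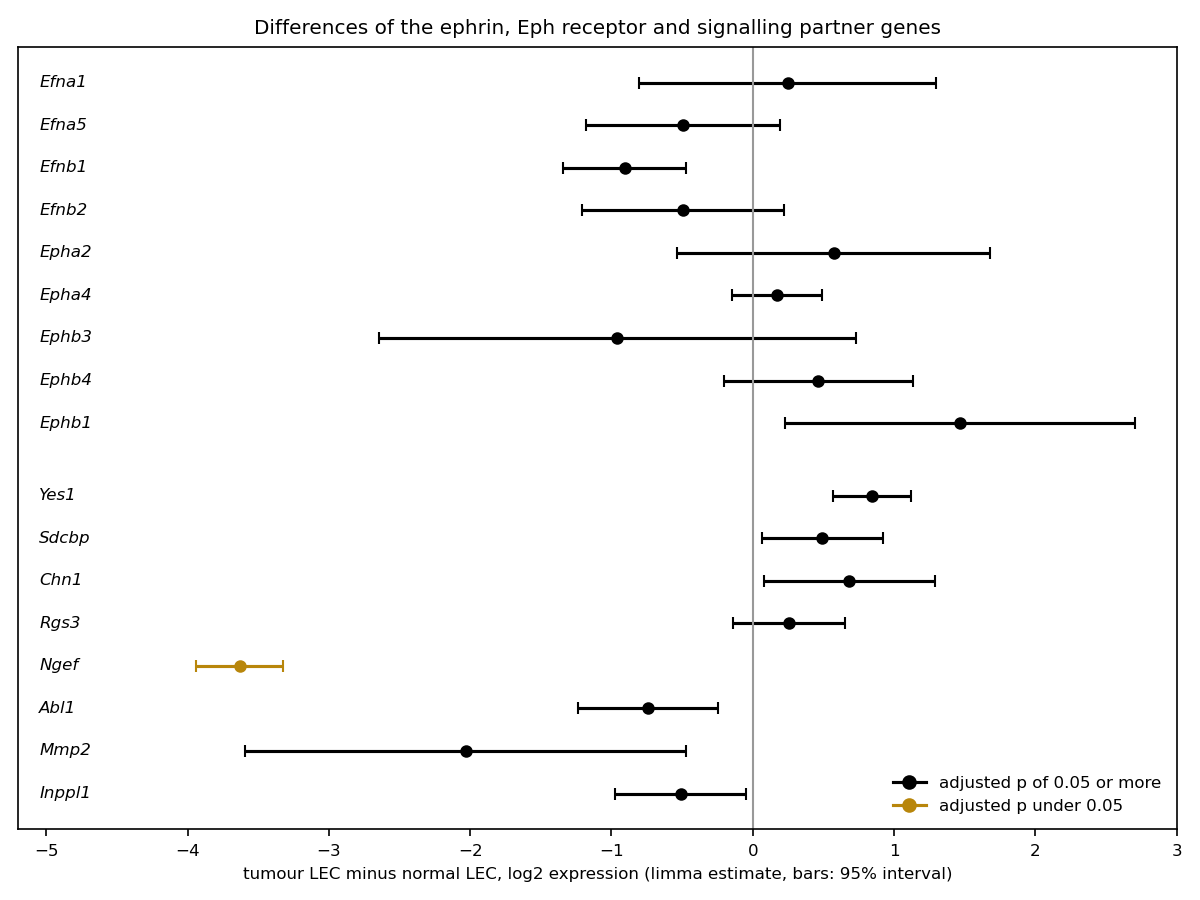
Log2 difference, tumour LEC minus normal LEC (x axis), with its 95% interval for the 8 members and Ephb1 (upper rows) and 8 of the 10 partners with separated groups (lower rows). Of the 8 members 7 have an interval that crosses 0, and Ngef alone has an adjusted p under 0.05, but its point and bar rest on tumour values at background, so that only a difference of at least 2.41 was measured.

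**Figure D5:**
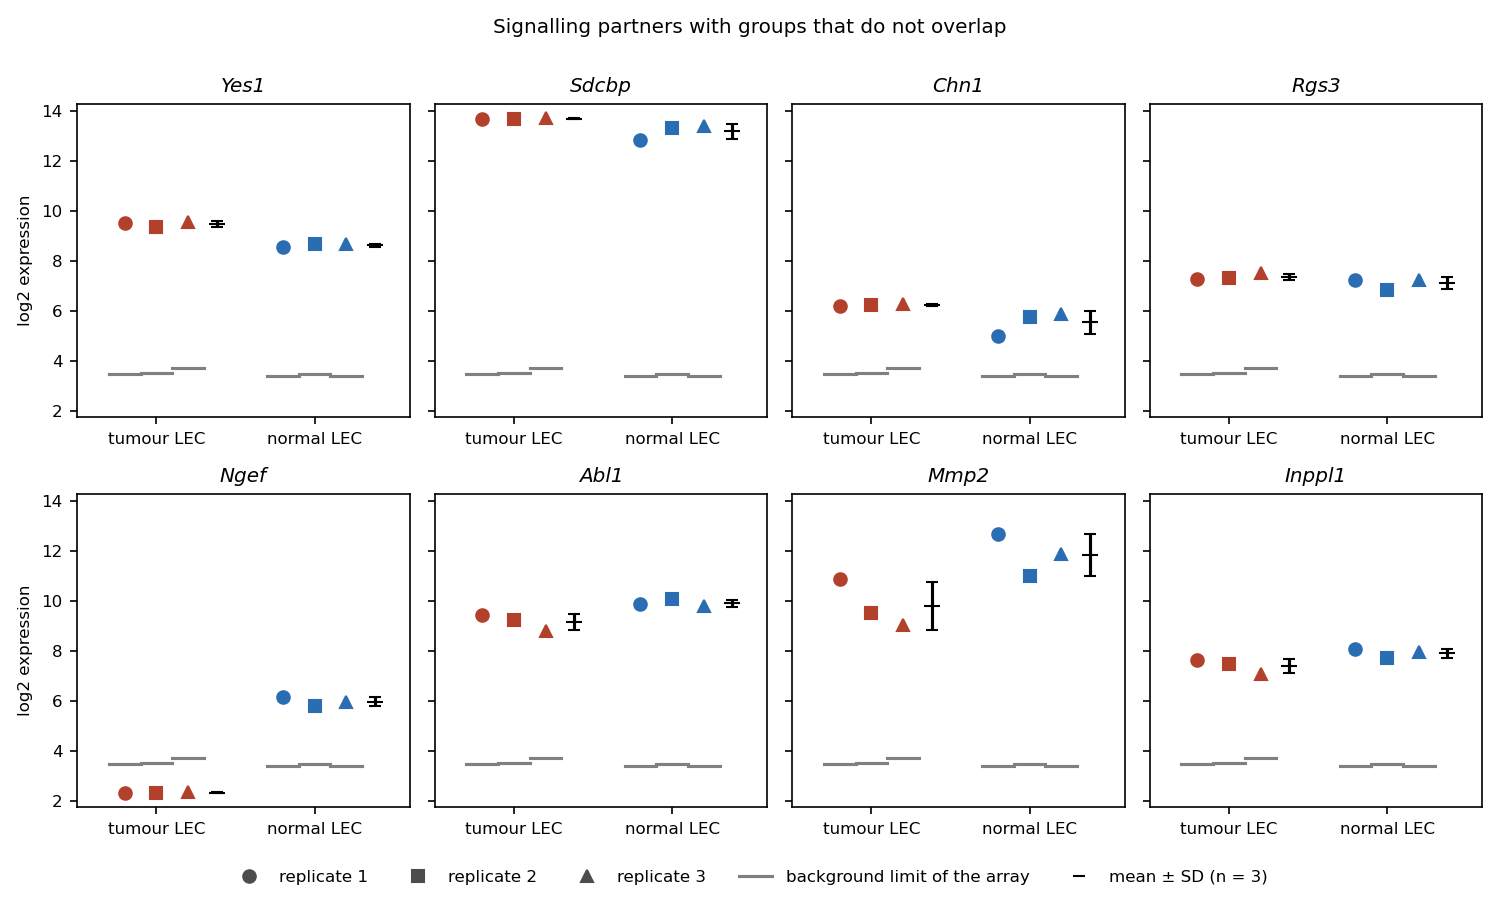
Log2 expression (y axis) of 8 signalling partners with separated groups on 3 tumour LEC arrays (red) and 3 normal LEC arrays (blue), with mean ± SD in black and background limits in grey. Ngef lies below the limit on the tumour arrays, at 2.33 to 2.38, and at 5.82 to 6.16 on the normal arrays.

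Arterial and venous genes gave the setting of Efnb2 and Ephb4. Of 14 tested, 0 passed in either direction, against 0.216% of all genes. Groups were fully apart for 42.9% of them, against 32.4% of all genes. With tumour LEC higher there were 4 and lower 2, against 20.9% and 11.6% of all genes. Of those higher, only Unc5b lay above background on all arrays. Hey2, Dll4 and Aplnr read at background on most or all arrays, where the limit was itself higher on the tumour arrays. Unc5b, a netrin receptor of arteries and sprouting tips, read 9.69, 9.68 and 10.18 in tumour LEC and 8.10, 8.21 and 8.76 in normal LEC. These ranges were clearly apart, with a difference of 1.49 (SE 0.24, adjusted p = 0.0863, limma). Unc5b passed with array weights only (1.30, adjusted p = 0.0425, limma, against 0.0592 to 0.247 under the other alternatives). Dll4, a Notch ligand known to raise Efnb2 in arteries, was above background in tumour replicate 3 alone, at 4.88, and Hey2, a Notch target, differed by 0.15 (SE 0.10) near background, or 0.09 without tumour replicate 3, while Aplnr lay at background throughout. Nr2f2, which encodes the venous factor COUP-TFII, differed by -0.98 (SE 0.35) in its brightest probe set, or -0.62 without tumour replicate 2, -0.56 with all probe sets averaged and -1.51 with array weights, and in the other 4 above background the groups overlapped. Nrp1, a semaphorin and VEGF co-receptor, read 8.50, 5.36 and 3.67 in tumour LEC and 10.22, 9.00 and 9.07 in normal LEC, a difference of -3.59 (SE 1.24, adjusted p = 0.276, limma), with a wide spread between the tumour arrays. Its value in tumour replicate 3 lay at background (limit 3.71), so the size of the difference rests in part on that limit.

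The genes whose pattern over the 6 arrays was most like that of Efnb2, by Pearson correlation among 3233 candidate genes, were Krt20 (r = 0.983), Mctp2 (r = 0.980) and Igf2bp3 (r = 0.950). Each was higher in normal replicates 2 and 3 than on the other 4 arrays, and 12 of the candidates correlated above 0.9. Those most like Ephb4 were Cmtm8 (r = 0.992), Fcgr2b (r = 0.984) and Crebl2 (r = 0.983), each highest in tumour replicate 1, and 105 candidates correlated above 0.9. The arrays share their group and cell make-up, and with 6 points such values are descriptions only.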

How the data were processed

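RNA of 6 samples, 50 ng each, was labelled with a two-cycle kit and hybridised to Affymetrix arrays. Each deposited value is the log2 expression of a probe set. RMA and GCRMA are both named in the submitters' processing notes, without version, and which of them the authors used for these values is not given in the sources used here. Both normalize between arrays, and GCRMA draws dim signals to a floor. Scanner files were not analysed here. Gene symbols came from the platform annotation in GEO, and Entrez identifiers in a RefSeq table (GRCm38.p6) changed 0 symbols. Of 45101 probe sets 34945 had 1 gene, 932 several and 9160 none listed, and 64 were controls.

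Tumour and normal LEC were compared with limma 3.58.1 in R 4.3.3 (lmFit and eBayes), two-sided, on genes with a mean above the 40th percentile (2.71). Fold changes and SEs are on the log2 scale. Intervals (95%) are not adjusted. The smallest p of an exact permutation test of 3 arrays against 3 is 0.1. The steps were tested on simulated data. The members, gene lists, motifs and rule were chosen with earlier results of these data known. The rule named all ephrins and Eph receptors, up to 4 separated genes per direction of the partner and the arterial and venous lists, 8 markers, and for Efnb2 and Ephb4 the 3 most correlated genes above background on at least 3 arrays with an SD over 0.5. Of 144 list entries 139 were on the array.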

Additional observations from a re-analysis of the deposited data

How the results depend on the processing

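Across 15 alternatives to the main settings, 115 of 119 differences of the 8 members kept their direction and their side of the threshold. Array weights brought 1 member, Efnb1, past it, and no member passed under the other 14, leave-one-out fits included (0 in each). The sign turned for Efna1 with array weights (-0.22) and without tumour replicate 1 (-0.067, with a range of -0.067 to 0.59 over the arrays left out), for Epha4, at background, without probe sets prone to cross-hybridization (-0.025), for Aplnr with quantile normalization (-0.031) and median centring (-0.027), for Prox1 with array weights (-0.091) and for Ptprc without tumour replicate 1 (-0.016, range -0.016 to 1.41). The cause was not tested. The number of members with separated groups was 2, against 1 with the 60th percentile filter, with all probe sets of a gene averaged and without cross-hybridizing probe sets, and 2 to 4 with single arrays left out, where fewer arrays separate more easily. Over all genes the count past the threshold was 28, against 10 with no filter, 97 with the 60th percentile filter and 385 with array weights, and with single arrays left out it was 9, 11 and 4 without tumour replicates 1, 2 and 3 and 82, 20 and 6 without normal replicates 1, 2 and 3. Same-numbered arrays deviated together with correlations of 0.193, 0.326 and -0.00383, so the numbers were not taken as pairs, and not every array correlated best with its own number. With the replicate number as a block 46 genes passed and 0 members. Signal near background limits what can be said of Epha4, of the Ephb1 level in normal LEC, of Ngef in tumour LEC and of Nrp1 in tumour replicate 3.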
